A study of Homo sapiens with 2 samples.

Results

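The genes described here are 44 genes of chromosome band 17q21, measured in cabazitaxel (CBZ)-resistant PC3CR cells and their parental PC3 cells. They were picked by symbol from the neighbourhood of the HOXB cluster, with the HOXB genes themselves left out, because genes of this stretch had already been seen to be lower in PC3CR cells. They make up 44 of the 19775 genes measured on the arrays. PC3 cells are an established line from prostate cancer. The PC3CR subline was made from them in the laboratory of the study by culture in CBZ, a taxane that stabilises microtubules, for 18 months. PC3CR cells were examined 3 months after the drug had been withdrawn. Both lines were kept in RPMI medium with fetal bovine serum, and total RNA of each was hybridised to 1 array. PC3CR is thus a single resistant subline set against its parent, with no second subline and no repeat culture. The measured value is the log2 signal of a probe set (a group of short probes for 1 transcript) after the robust multichip average (RMA), and each gene stands for its probe set with the highest mean of both arrays. A difference is PC3CR minus PC3 on this log2 scale, so that -1 is a 2-fold lower signal in PC3CR cells. With 1 array per line no difference has a replicate check, no p-value is given, and precision is limited by the number of arrays. In RNA of whole cultures, fewer cells with a transcript and less of it per cell cannot be told apart. Since the members were chosen from this same difference, its values describe them and test nothing.

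The stretch lies around the HOXB cluster of homeobox genes and holds genes with unrelated tasks, many of them used in most cells. Among the members are SPOP, the substrate adaptor of a ubiquitin ligase that is often mutated in prostate cancer, the transcription factor NFE2L1, which turns on proteasome genes, and the prohibitin gene PHB1. Others serve nuclear import, mitochondrial translation, ribosome assembly, histone acetylation and endosomal sorting.

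Of the 44 members, 17 were at least 2-fold lower in PC3CR cells, and none was at least 2-fold higher. Over all 19775 genes, 6.72% were at least 2-fold lower and 9.84% at least 2-fold higher. In all, 33 members had a lower signal in PC3CR cells, against 52.4% of all genes. At or below -0.5 were 21 members, against 16.3% of all genes, and at or below -1.5 were 11, against 3.34%. Within 2-fold lay 27 members. All 44 differences had a median of -0.45, against -0.04 over all genes, and the members ran between -2.49 for SPAG9 and 0.91 for NGFR. CALCOCO2 was just past the 2-fold limit at -1.02, and NFE2L1 at -0.97 and PPP1R9B at -0.93 just fell short of it. Weak signals were found for 10 members, in that neither array reached the median over genes of its array, which was 6.05 for PC3CR and 5.93 for PC3. These were LRRC46, COPZ2, SKAP1, IGF2BP1, B4GALNT2, NGFR, DLX4, DLX3, SAMD14 and EPN3, and none of them was past 2-fold in either direction. Their differences lay between -0.46 and 0.91. The other 34 members met this floor and held all 17 genes past 2-fold, against 10.8% of all genes that met it. SP6 and PPP1R9B met it on the PC3 array alone, so that they had to be lower in PC3CR relative to the medians. Under loess centring and under quantile normalization NGFR passed 2-fold upward, at 1.02 in both.

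**Figure D1:**
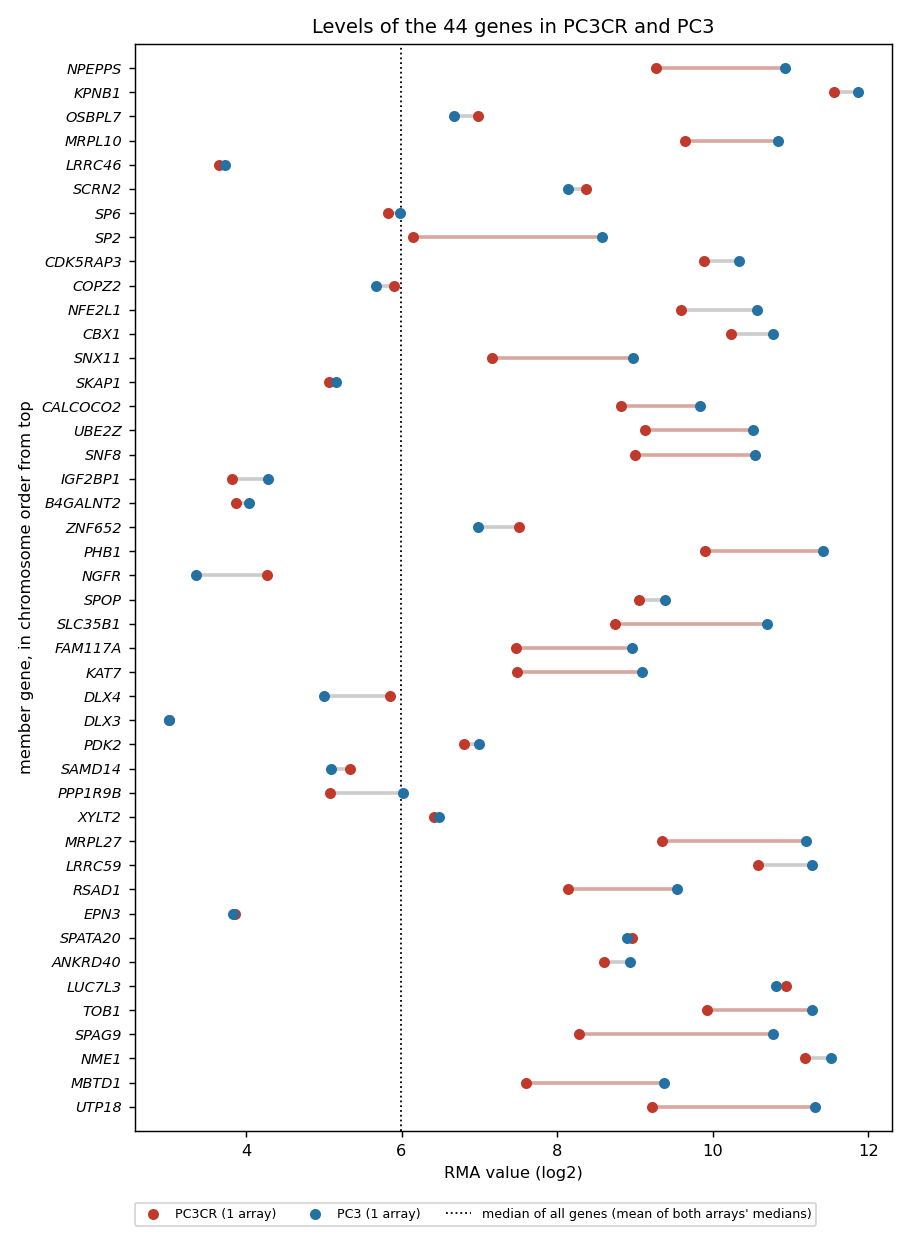
Log2 RMA value (horizontal axis) of each of the 44 members (vertical axis, in chromosome order) on the PC3CR array (red points) and the PC3 array (blue points), joined by a red line where PC3CR was at least 2-fold lower and a grey line otherwise. The dotted line is the mean of both arrays' medians over genes, and the 17 red lines all run to the right of it on the PC3 side, with SP2 and SPAG9 among the longest.

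Both arrays had a median of 4.81 over their 54613 probe sets. All 4 epithelial markers met the floor. The keratin KRT18 was at 12.36 in PC3CR and 11.69 in PC3 cells, KRT8 at 9.79 and 9.72, the adhesion protein gene EPCAM at 8.57 and 11.07, and CDH1 at 8.08 and 8.75. The mesenchymal markers differed in opposite directions, VIM being at 12.68 in PC3CR and 11.47 in PC3 and CDH2 at 3.28 and 8.21. The prostate markers were KLK3 at 8.08 in PC3CR and 8.04 in PC3, and TMPRSS2 at 5.78 and 6.23. Below the floor were the leukocyte marker PTPRC (2.95 in PC3CR, 3.03 in PC3), the fibroblast markers COL1A2 (4.08 and 4.69) and PDGFRB (5.64 and 5.57), the basal marker KRT5 and the neuroendocrine markers CHGA and SYP. The endothelial marker PECAM1, at 5.81 in PC3CR and 6.41 in PC3, met the floor on the PC3 array alone. The part of these markers in the results below was not tested.

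By the 1 probe set that stands for each gene, SPAG9 and SP2 had the largest differences among the members. With all probe sets of a gene averaged, SPAG9 was at -1.68 and SP2 at -0.86, and UTP18 at -2.07, SLC35B1 at -1.95 and TOB1 at -1.94 were then the lowest. SPAG9, a scaffold protein of the JNK kinase pathway, was at 8.28 in PC3CR cells and 10.77 in PC3 cells, a 5.61-fold lower signal. SP2, a zinc finger transcription factor of the Sp family, was at 6.14 in PC3CR and 8.58 in PC3, 5.40-fold lower. UTP18, which helps to assemble the small ribosomal subunit, was at 9.22 in PC3CR and 11.31 in PC3, 4.28-fold lower. Its neighbour MBTD1, a chromatin protein of the TIP60 acetyltransferase complex, was at 7.60 in PC3CR and 9.37 in PC3, 3.42-fold lower. LUC7L3, a splicing-related protein gene before SPAG9 with TOB1 between them, was by contrast at 10.95 in PC3CR and 10.82 in PC3, a difference of 0.13. The stretches of 250 bases before the transcription starts of SPAG9, SP2, UTP18, MBTD1 and LUC7L3 are shown. These 5 are 4 lowered genes and 1 other member that was not lowered. Sequences are those of RefSeq on GRCh38.p14, 5′ to 3′ on the strand of the gene, at chr17:51120869-51121118 (minus strand) for SPAG9, chr17:47895986-47896235 (plus) for SP2, chr17:51260296-51260545 (plus) for UTP18, chr17:51260050-51260299 (minus) for MBTD1 and chr17:50719353-50719602 (plus) for LUC7L3. Capitals mark, on either strand, the GC box GGGCGG, the CCAAT box and the ETS motif CCGGAAG.
SPAG9: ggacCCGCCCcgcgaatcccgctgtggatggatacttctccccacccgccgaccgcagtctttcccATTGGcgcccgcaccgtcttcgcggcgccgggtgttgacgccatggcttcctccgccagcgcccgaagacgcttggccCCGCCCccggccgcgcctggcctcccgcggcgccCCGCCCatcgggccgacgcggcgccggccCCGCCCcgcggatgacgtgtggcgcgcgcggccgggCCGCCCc
SP2: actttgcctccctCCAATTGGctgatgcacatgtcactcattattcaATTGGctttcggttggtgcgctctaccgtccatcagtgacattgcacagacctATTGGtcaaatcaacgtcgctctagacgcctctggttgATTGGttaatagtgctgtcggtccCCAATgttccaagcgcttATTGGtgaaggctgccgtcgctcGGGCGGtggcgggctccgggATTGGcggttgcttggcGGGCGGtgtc
UTP18: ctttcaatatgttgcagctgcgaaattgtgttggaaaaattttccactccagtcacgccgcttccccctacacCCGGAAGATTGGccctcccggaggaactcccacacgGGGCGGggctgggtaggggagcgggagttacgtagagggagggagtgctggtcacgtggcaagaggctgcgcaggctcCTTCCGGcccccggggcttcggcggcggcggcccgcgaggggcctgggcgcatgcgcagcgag
MBTD1: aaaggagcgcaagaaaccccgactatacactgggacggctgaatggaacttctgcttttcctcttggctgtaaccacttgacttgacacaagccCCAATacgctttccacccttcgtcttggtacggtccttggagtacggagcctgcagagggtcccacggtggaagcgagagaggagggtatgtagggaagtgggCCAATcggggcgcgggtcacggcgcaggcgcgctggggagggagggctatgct
LUC7L3: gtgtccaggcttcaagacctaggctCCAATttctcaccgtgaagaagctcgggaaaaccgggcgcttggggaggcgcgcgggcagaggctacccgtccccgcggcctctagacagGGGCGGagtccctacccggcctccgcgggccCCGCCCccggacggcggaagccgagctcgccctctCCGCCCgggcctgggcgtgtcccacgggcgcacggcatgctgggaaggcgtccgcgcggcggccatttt

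The SPAG9 stretch held 5 GC boxes and 1 CCAAT box. That of SP2 held 2 GC boxes and 8 CCAAT boxes, a pair of which overlap. UTP18 had 1 GC box, 1 CCAAT box and 2 ETS motifs, and MBTD1 had 2 CCAAT boxes and no GC box. LUC7L3, which was not lowered, had 3 GC boxes and 1 CCAAT box. The GC box and the CCAAT box thus stood before LUC7L3 as well as before lowered members, whereas the ETS motif was found before UTP18 alone of these 5. Start site windows were found for 33 of the 44 members, 44 windows in all since a gene can have several. The 11 without a window were KPNB1, MRPL10, LRRC46, SP6, SKAP1, IGF2BP1, NGFR, DLX4, DLX3, SAMD14 and EPN3. Of these, MRPL10 alone was at least 2-fold lower, and all but KPNB1, MRPL10 and SP6 were below the floor. The windows thus leave out most of the weak members. The GC box was in 25 of the 44 member windows (56.8%) and in 42.6% of all 35116 windows of the same length, and the CCAAT box was in 22 (50.0%) and 32%. The ETS motif was in 5 member windows (11.4%), those of KAT7, MRPL27, NME1, SNF8 and UTP18, against 8.52% of all windows. The TATA box TATAAA was in 2 (4.55%), those of CALCOCO2 and FAM117A, against 10.7%. Of the member windows, 20 belonged to genes at least 2-fold lower and 24 to the others. The GC box was in 12 of these 20 and 13 of these 24, and the CCAAT box in 13 and 9. The ETS motif was in 4 of the 20 and 1 of the 24, and the TATA box in 2 and 0. These splits were not tested. A match of letters is a description and not a binding site.

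Some members start close to another gene on the opposite strand. MBTD1 and UTP18 start 496 bases apart on opposite strands, and both were lower, by 1.77 and 2.10 on the log2 scale. MRPL27, a protein of the large subunit of the mitochondrial ribosome, starts 44 bases from EME1, which encodes a subunit of a DNA repair nuclease and is no member. MRPL27 was at 9.35 in PC3CR and 11.20 in PC3 cells, 3.59-fold lower. EME1 was at 9.71 in PC3CR and 9.72 in PC3 cells, a difference of -0.01. The 44 bases between both starts are shown because they separate a lowered gene from one with nearly equal signals (GRCh38.p14 chr17:50373185-50373228, plus strand, the strand of EME1), with 1 ETS motif, on the other strand, in capitals.
EME1-MRPL27: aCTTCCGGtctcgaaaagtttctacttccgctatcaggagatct

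Among the groups of members by role, each too small for more than a description, mitochondrial proteins had the lowest median. Of 5 members with mitochondrial products, 4 were lower by at least 2-fold, against 6.72% of all genes and 10.8% of those that met the floor, and the 5 had a median of -1.40. The members were chosen for being low, so nothing is read from this count or from those of the other role groups. Besides MRPL27, MRPL10, another protein of the large mitochondrial ribosomal subunit, was at 9.65 in PC3CR and 10.84 in PC3 cells, 2.28-fold lower. PHB1, a ring-forming scaffold of the mitochondrial inner membrane, was at 9.90 in PC3CR and 11.42 in PC3, 2.87-fold lower. RSAD1, a radical SAM domain protein assigned to mitochondria, was at 8.15 in PC3CR and 9.54 in PC3, 2.64-fold lower. PDK2, a kinase that switches off pyruvate dehydrogenase, differed little, at 6.80 in PC3CR and 7.0 in PC3. A gene of mitochondrial energy supply that is no member, ATP5MC1, which encodes the c subunit of ATP synthase and lies between CALCOCO2 and UBE2Z, was at 9.17 in PC3CR and 11.03 in PC3.

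The partners of these genes elsewhere in the genome gave other values. Of all genes that met the floor, 10.8% were at least 2-fold lower and 15.6% at least 2-fold higher. Over all genes these shares were 6.72% and 9.84%. The counts of each partner list stand beside these shares, and nothing is read from a single list. Of 41 other genes of the large mitochondrial ribosomal subunit, 5 were at least 2-fold lower and none higher, with a median of -0.18. MRPL23 had the lowest difference, -2.19 (7.44 in PC3CR, 9.63 in PC3), followed by MRPL49 at -1.18. Both MRPL10 and MRPL27 were thus below that median, and MRPL27 lay above MRPL23. Of 7 genes of the prohibitin complex and of mitochondrial proteases, none was past 2-fold, and the median was 0.06. PHB2, the obligate partner of PHB1 in its ring complex, was at 10.98 in PC3CR and 10.91 in PC3 cells, and was singled out after its value had been seen. Of 9 genes of pyruvate dehydrogenase and its kinases and phosphatases, 2 were at least 2-fold higher, PDK3 at 1.58 and DLAT at 1.2, and PDHA1 was at -1.09.

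Members that act in protein degradation were all lower, with a median of -0.97. In 2 of 5 cases this was by at least 2-fold, against 6.72% of all genes. NPEPPS, the puromycin-sensitive aminopeptidase and the first member along the chromosome, was at 9.28 in PC3CR and 10.93 in PC3 cells, 3.14-fold lower. UBE2Z, a ubiquitin-conjugating enzyme, was at 9.13 in PC3CR and 10.51 in PC3, 2.61-fold lower. NFE2L1 was at 9.60 in PC3CR and 10.57 in PC3, 1.96-fold lower, and its 3 probe sets differed by between -1.15 and -0.97. SPOP was at 9.05 in PC3CR and 9.39 in PC3, a difference of -0.34. CDK5RAP3, a subunit of the ligase that attaches the ubiquitin-like protein UFM1, was at -0.44.

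Among 27 proteasome subunit genes, which NFE2L1 is known to switch on, 1 was at least 2-fold lower and none higher, with a median of -0.01. That gene, PSMD12, is itself on chromosome 17, at 9.74 in PC3CR and 11.09 in PC3 cells, and PSMB7 had the highest difference, 0.99. Around SPOP, 12 genes of its CUL3 ligase, related adaptors and known substrates had a median of 0.23. One was at least 2-fold higher, the adaptor gene KLHL13 at 1.29, and the lowest was the substrate gene BRD2 at -0.84. Of 4 UFMylation genes, UFSP2 was at -1.10 and UFC1 at -0.79, with a median of -0.71. Of 6 autophagy receptor genes set beside CALCOCO2, TOLLIP was at -1.10, TAX1BP1 at 0.65, and the median was 0.25.

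Among 9 members of chromatin and transcription, 4 were lower by at least 2-fold, against 6.72% of all genes. Their group had a median of -0.54. KAT7, the catalytic subunit of the HBO1 histone acetyltransferase, was at 7.48 in PC3CR and 9.09 in PC3 cells, 3.06-fold lower. TOB1, an antiproliferative protein that recruits the deadenylase of messenger RNA, was at 9.93 in PC3CR and 11.28 in PC3, 2.54-fold lower. With SP2 and MBTD1 these were the 4. CBX1, a heterochromatin protein of the HP1 family, was at 10.24 in PC3CR and 10.78 in PC3. ZNF652, a zinc finger repressor, had the highest difference of the members that met the floor, at 7.51 in PC3CR and 6.99 in PC3, or 0.52. SP6 differed by -0.14. The homeobox genes DLX4 and DLX3 were below the floor, DLX4 at 5.85 in PC3CR and 5.00 in PC3, and DLX3 at 3.01 on both arrays.

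The families of these factors did not share one direction. Of 13 genes of the HBO1 complex and the MYST acetyltransferases, 3 were at least 2-fold lower and 1 higher. KAT6B was at 7.40 in PC3CR and 9.67 in PC3 cells, and JADE1, which targets KAT7 to chromatin, was at 8.25 and 6.92. Of 8 genes of the HP1 and Polycomb chromobox family and their partners, none was at least 2-fold lower and 2 were higher, CBX5 at 1.52 and SUV39H2 at 1.26, with a median of 0.65. CBX1 at -0.54 was below all 8. Of 10 other SP and DLX factors, 3 were at least 2-fold lower, SP8 at -5.05 and DLX2 and DLX1 at -2.22 and -2.18.

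Of 8 members that work in nuclear import and membrane traffic, 3 were at least 2-fold lower, against 6.72% of all genes. SNX11, a sorting nexin of endosomes, was at 7.17 in PC3CR and 8.98 in PC3 cells, 3.50-fold lower. SNF8, a subunit of the ESCRT-II complex that sorts membrane proteins for degradation, was at 9.0 in PC3CR and 10.55 in PC3, 2.93-fold lower. CALCOCO2, an autophagy receptor, was at 8.82 in PC3CR and 9.84 in PC3, 2.03-fold lower. KPNB1, the nuclear import receptor importin beta, was at 11.56 in PC3CR and 11.87 in PC3, within 2-fold on each of its 6 probe sets. LRRC59, a protein of the endoplasmic reticulum membrane, was at -0.69, whereas the sterol-binding protein gene OSBPL7 was at 6.98 in PC3CR and 6.68 in PC3, or 0.30. The coatomer gene COPZ2 was at 0.23 and the epsin gene EPN3 at 0.03, both below the floor.

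The ESCRT genes beside SNF8 were also past 2-fold in both directions, as were 10.8% (lower) and 15.6% (higher) of all genes that met the floor. Of 14 ESCRT genes, 3 were at least 2-fold lower and 2 higher, and the median was -0.02. VPS36, which binds SNF8 directly, had the highest difference, at 7.93 in PC3CR and 6.38 in PC3 cells. VPS25, the other subunit of ESCRT-II, was at 8.34 in PC3CR and 8.55 in PC3, and was named after its value had been seen. VPS28 was the lowest of the list at -1.93. Of 19 importins and their partners, TNPO2 was at -1.94, and 3 were at least 2-fold higher, with IPO8 at 1.55 the highest. Of 9 coatomer genes none was past 2-fold, COPE at -0.80 and COPB2 at 0.80 lying furthest out.

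The remaining members were few in each role. Of 3 RNA genes, UTP18 was lowered as given above, LUC7L3 was not, and IGF2BP1, a fetal messenger RNA binding protein, was below the floor at 3.82 in PC3CR and 4.28 in PC3. SLC35B1, a nucleotide transporter of the endoplasmic reticulum, was at 8.75 in PC3CR and 10.70 in PC3 cells, 3.85-fold lower. The other members that handle sugars were at -0.07 (XYLT2, which starts glycosaminoglycan chains) and -0.17 (B4GALNT2, below the floor). Among 5 receptors, adaptors and signalling proteins SPAG9 alone was past 2-fold. NGFR, the low-affinity neurotrophin receptor, was at 4.27 in PC3CR and 3.36 in PC3, 1.88-fold higher but below the floor on both arrays. PPP1R9B, which directs protein phosphatase to its substrates, was at 5.09 in PC3CR and 6.02 in PC3. SKAP1, a T cell adaptor, differed by -0.10.

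NME1, a nucleoside diphosphate kinase studied as a metastasis suppressor, was at 11.19 in PC3CR and 11.52 in PC3 cells. A probe set annotated to both NME2 and the NME1-NME2 read-through gene was at 11.81 in PC3CR and 13.10 in PC3, a difference of -1.29. NME1 and NME2 are near-identical copies, so probes may bind RNA of either, and the value of NME1 is uncertain to that extent. Of 6 members with no role given here, FAM117A was at 7.47 in PC3CR and 8.97 in PC3, 2.82-fold lower. SCRN2 was at 8.38 in PC3CR and 8.13 in PC3, or 0.24. ANKRD40 was at -0.33, and LRRC46, SAMD14 and SPATA20 lay between -0.08 and 0.24.

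Of 17 other genes of the small subunit processome, in which UTP18 works, 2 were at least 2-fold lower, DCAF13 at -1.41 and UTP4 at -1.08, and the median was -0.38. Of 6 JNK kinases and JIP scaffolds none was lower by that much, and MAP2K4 at 1.08 and MAPK8IP3 at 0.87 were the highest, against -2.49 for SPAG9. Of 5 genes beside IGF2BP1 and NGFR, IGF2BP2 was at -1.30 and IGF2BP3 at 0.95. Of 6 nucleoside diphosphate kinases and TOB or BTG proteins none was past 2-fold, with NME3 at 0.76 and NME6, TOB2, BTG1, BTG3 and NME4 between -0.51 and 0.60. Over all lists together, 22 of 213 partner genes were at least 2-fold lower (10.3%) and 12 higher, with a median of -0.06. The share lower is close to the 10.8% of all genes that met the floor and above the 6.72% of all genes. The share higher, 5.63%, is below the 15.6% of all genes that met the floor and the 9.84% of all genes. On chromosome 17 outside the stretch, 1 of 16 partner genes was at least 2-fold lower.

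**Figure D2:**
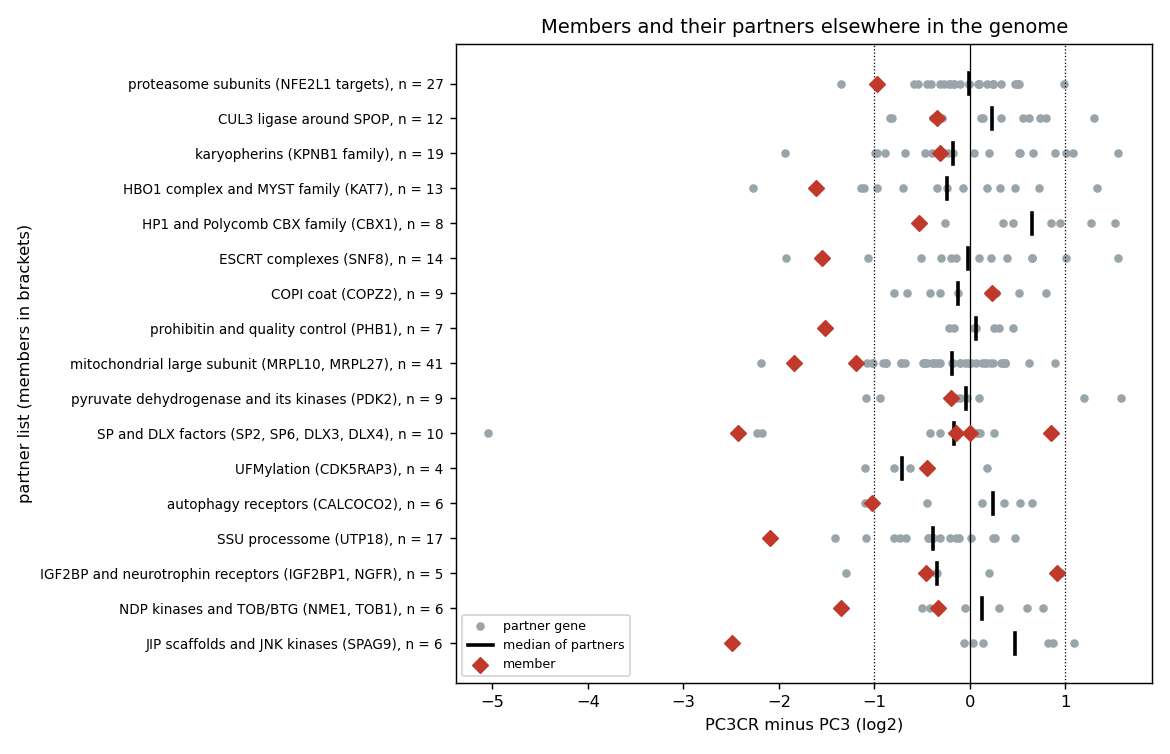
PC3CR minus PC3 (log2, horizontal axis) for the genes of 17 partner lists (vertical axis, number of measured partner genes after each name), with grey points for partner genes, a black bar for their median and red diamonds for the members named in brackets; dotted lines mark 2-fold. The medians of the partners lie between -0.71 and 0.65, and SPAG9, UTP18 and PHB1 stand below every partner of their lists.

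The members are a selection, and the stretch between NPEPPS and UTP18 held 89 measured genes. Besides the 44 members these were 30 other genes and the 15 genes of the HOXB stretch. Of the 30 others, 3 (10.0%) were lower by at least 2-fold, against 6.72% of all genes. The group had a median of -0.27, against -0.04 over all genes. The 3 were COL1A1, a fibrillar collagen, at 6.56 in PC3CR and 8.69 in PC3 cells, TMEM92 at 5.90 and 7.83, and ATP5MC1. Among the 10 of these 30 genes that met the floor, 2 of them on the PC3 array alone, ACSF2, an acyl-CoA synthetase, followed at -0.76. The highest of these 10 were the long noncoding gene LOC101927253 at 0.50, EME1 at -0.01, the drug efflux transporter gene ABCC3 at -0.16 and the calcium channel gene CACNA1G at -0.28. The median of the 10 was -0.60. The 5 probe sets of COL1A1 ran between -2.12 and 0.03, with a mean of -0.79. With all probe sets of each gene averaged, 2 of the 30 were at least 2-fold lower. Over all 30 genes, TBKBP1 at -0.87 was the fourth lowest and MYCBPAP at 0.54 the highest, both below the floor. In the HOXB stretch 7 of 15 genes were at least 2-fold lower and 1 was higher. HOXB3 was at 5.67 in PC3CR and 8.95 in PC3, and HOXB7 at 7.83 and 6.40. The 2 probe sets of HOXB3 differed by -3.28 and -0.49, and the 3 of HOXB7 by between 0.89 and 1.59.

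Along the chromosome, some lowered members came in runs of consecutive genes, broken by genes within 2-fold. The lowered members NPEPPS, MRPL10, SP2, SNX11, PHB1, MRPL27 and RSAD1 were in no run between NPEPPS and UTP18. SLC35B1, FAM117A and KAT7 were consecutive among the genes that met the floor, as were TOB1 and SPAG9, and MBTD1 and UTP18. The longest run had 7 genes, 3 of the HOXB stretch followed by CALCOCO2, ATP5MC1, UBE2Z and SNF8. Of the 3 from the HOXB stretch, PRAC1 and HOXB13 met the floor on the PC3 array alone, so that they had to be lower in PC3CR relative to the medians. In the HOXB stretch this held for 6 of the 9 genes that met the floor. SPOP at -0.34 lay just before the run of SLC35B1. NME1 at -0.33 lay between SPAG9 and MBTD1. SPATA20, ANKRD40 and LUC7L3, at 0.07, -0.33 and 0.13, lay between RSAD1 and TOB1. The non-members CACNA1G, LOC101927253 and ABCC3 stood between SPATA20 and ANKRD40. The running median over 25 neighbouring genes that met the floor reached its lowest value on the chromosome, -1.5, at PHB1. Of the 25 genes in that window, 7 met the floor on the PC3 array alone. The stretch was chosen for low differences on these same 2 arrays, so the low running median is a description of that choice.

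**Figure D3:**
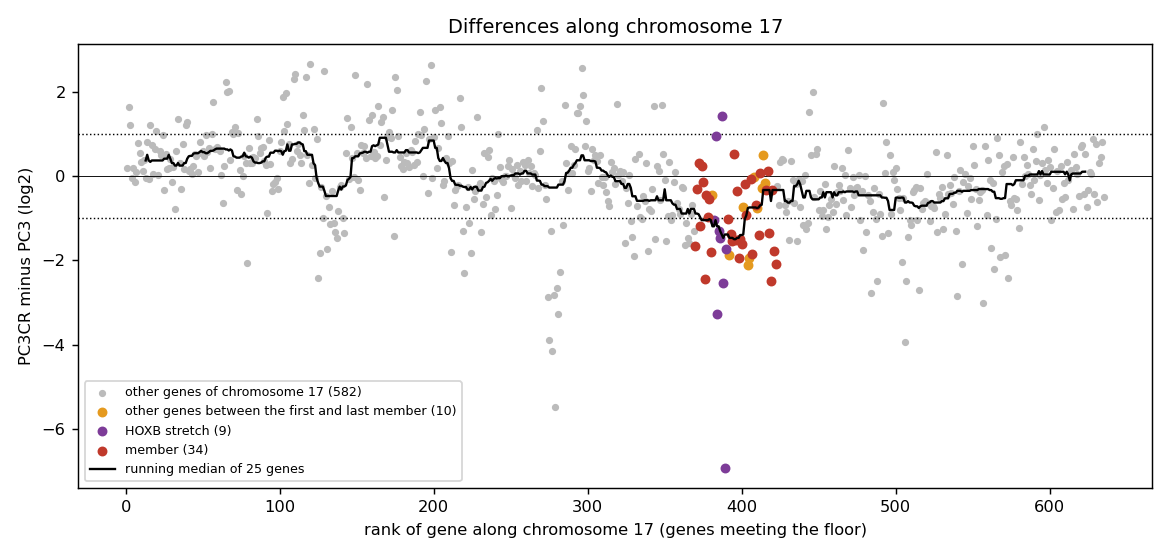
PC3CR minus PC3 (log2, vertical axis) of each gene of chromosome 17 that met the floor, by its rank along the chromosome (horizontal axis): red, 34 members; orange, 10 other genes between the first and last member; purple, 9 genes of the HOXB stretch; grey, 582 other genes. The black running median of 25 genes falls well before the first red point, reaches -1.5 within the red points and lies mostly between 0 and -1 after them; dotted lines mark 2-fold.

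The lowered stretch did not begin at the first member or end cleanly at the last. Walking outward from the middle of the members over genes that met the floor, and stopping at 3 genes in a row above -0.5, it ran between NMT1 and RSAD1. It then held 61 genes, of which 26 were members, 43 were at or below -0.5 and 30 were at least 2-fold lower. The walk goes on while genes are at or below -0.5, so it fixes most of these counts itself. Of the 61, 13 met the floor on the PC3 array alone. The 61 genes had a median of -0.97. Before NMT1, which encodes an N-myristoyltransferase and was at 9.69 in PC3CR and 11.22 in PC3 cells, came DCAKD at -0.10, C1QL1 at 0.53 and KIF18B, a mitotic kinesin gene, at 1.70. Beyond RSAD1 came SPATA20 at 0.07, CACNA1G at -0.28 and LOC101927253 at 0.50. TOB1, SPAG9, MBTD1 and UTP18 thus lay beyond the end found in this way, although each was at least 2-fold lower.

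The place of the edges depended on how they were sought. When the walk stopped at 2 genes in a row it ran between SP2 and RSAD1 and held 36 genes. With 5 genes in a row it reached back to DUSP3 and held 88. With a limit of -0.25 it ran on to COX11 past the last member and held 74, and with averaged probe sets it ran between NFE2L1 and RSAD1 and held 31. When genes below the floor were let in, it shrank to 6 genes between PHB1 and KAT7. The end of the stretch was thus RSAD1 in 4 of these 6 walks and its start differed among them.

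Genes on both sides of the members were lower too. Of the 20 genes before NPEPPS that met the floor, 7 were at least 2-fold lower, and their median was -0.90. Of the 20 after UTP18, 4 were, with a median of -0.41. Before the members, KANSL1, a subunit of a histone acetyltransferase complex, was at 8.62 in PC3CR and 10.25 in PC3 cells, and NSF, an ATPase of membrane fusion, was at 8.22 and 9.70. After them, MRPS23, a protein of the small mitochondrial ribosomal subunit, was at 9.01 in PC3CR and 10.54 in PC3, and COIL, the Cajal body protein coilin, was at 8.02 and 9.54. The genes next to the last member, TOM1L1 and COX11, were at -0.24 and -0.68. Of these flanking genes, 4 before and 2 after the members met the floor on the PC3 array alone. Over the 582 other genes of chromosome 17 that met the floor, flanks included, 13.6% were at least 2-fold lower, and their median was 0.02. Over all 1037 other genes of the chromosome these values were 8.49% and -0.08. Both medians pool unlike parts of the chromosome. The running median over 25 genes that met the floor reached 0.91 at WSB1, before the members. After them it was -0.80 at NOL11 and 0.11 at CSNK1D, near the end of the chromosome.

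The signal of a probe set went with the difference among the members. None of the 6 members with a mean of both arrays below 5, and none of the 9 between 5 and 7, was at least 2-fold lower. Between 7 and 9, 6 of 10 members were, and their median was -1.45. At or above 9, 11 of 19 were, and their median was -1.19. Over all genes the share at least 2-fold lower was 2.68% below 5, 7.35% between 5 and 7, 9.70% between 7 and 9 and 11% at or above 9. Across the 44 members the difference and the mean of both arrays had a Pearson correlation of -0.51 and a Spearman correlation of -0.49, against 0.05 and 0.10 across all 19775 genes. The points come from the same pair of arrays, and genes are not independent replicates. Members with a mean below 7 were not all near 0, since NGFR was at 0.91, DLX4 at 0.85 and PPP1R9B at -0.93. The other probe sets of DLX4 and PPP1R9B were at 0.05 and 0.10. For a weak member, no value here tells a gene that was equal in both lines from one whose probes gave little signal.

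**Figure D4:**
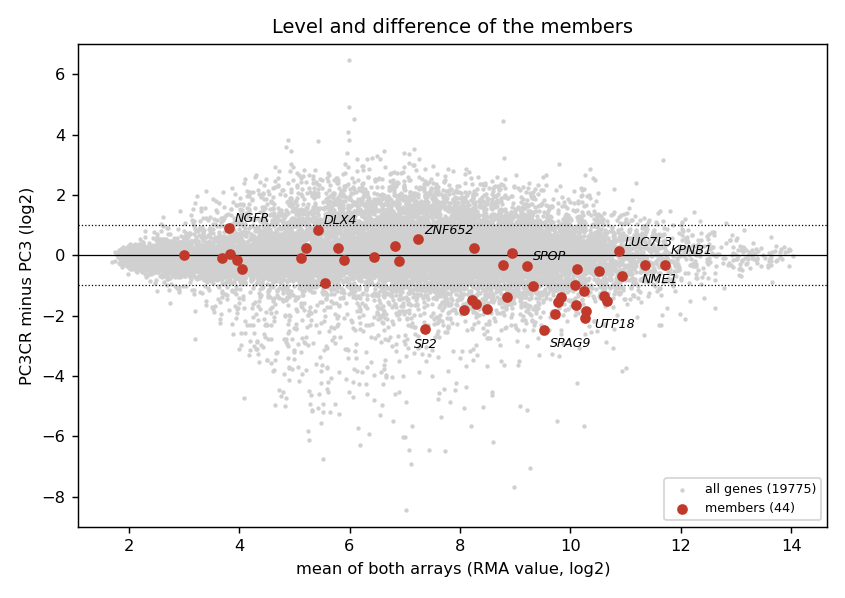
PC3CR minus PC3 (log2, vertical axis) against the mean of both arrays (log2 RMA value, horizontal axis) for all 19775 genes (grey) and the 44 members (red); dotted lines mark 2-fold. All members below the lower dotted line lie at a mean above 7, and those with a mean below 5 lie within 2-fold.

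Several probe sets of a gene did not always give the same difference. The 44 members had 101 probe sets, of which 79 were lower in PC3CR cells, 31 at least 2-fold lower and none at least 2-fold higher, with a median of -0.38. Of all 41091 probe sets with 1 gene, 20982 were lower, 2422 at least 2-fold lower and 3672 at least 2-fold higher, with a median of -0.03. Of the 28 members with more than 1 probe set, 17 were lower on all of them, 3 higher on all and 8 had probe sets on both sides of 0. On every probe set, 5 were at least 2-fold lower, namely NPEPPS, SNX11, PHB1, TOB1 and UTP18. The 2 probe sets of TOB1 differed by -2.53 and -1.34, and the 3 of NPEPPS by between -1.73 and -1.48.

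In 4 members the probe sets were furthest apart. Those of SP2 ran between -2.43 and 0.05, and the difference of SP2 rested on the brightest of its 3. Those of SPAG9 ran between -2.49 and -0.65 over 5 probe sets, all of them lower. Those of MBTD1 ran between -2.10 and -0.28, and those of LUC7L3 between -1.26 and 0.28 over 6, so that 1 dim probe set of LUC7L3 was past 2-fold while the one that stands for the gene was not. With all probe sets of each gene averaged, SP2 was at -0.86 and CALCOCO2 at -0.47, both within 2-fold, whereas NFE2L1 passed it at -1.06. The cause of the spread within a gene was not tested.

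**Figure D5:**
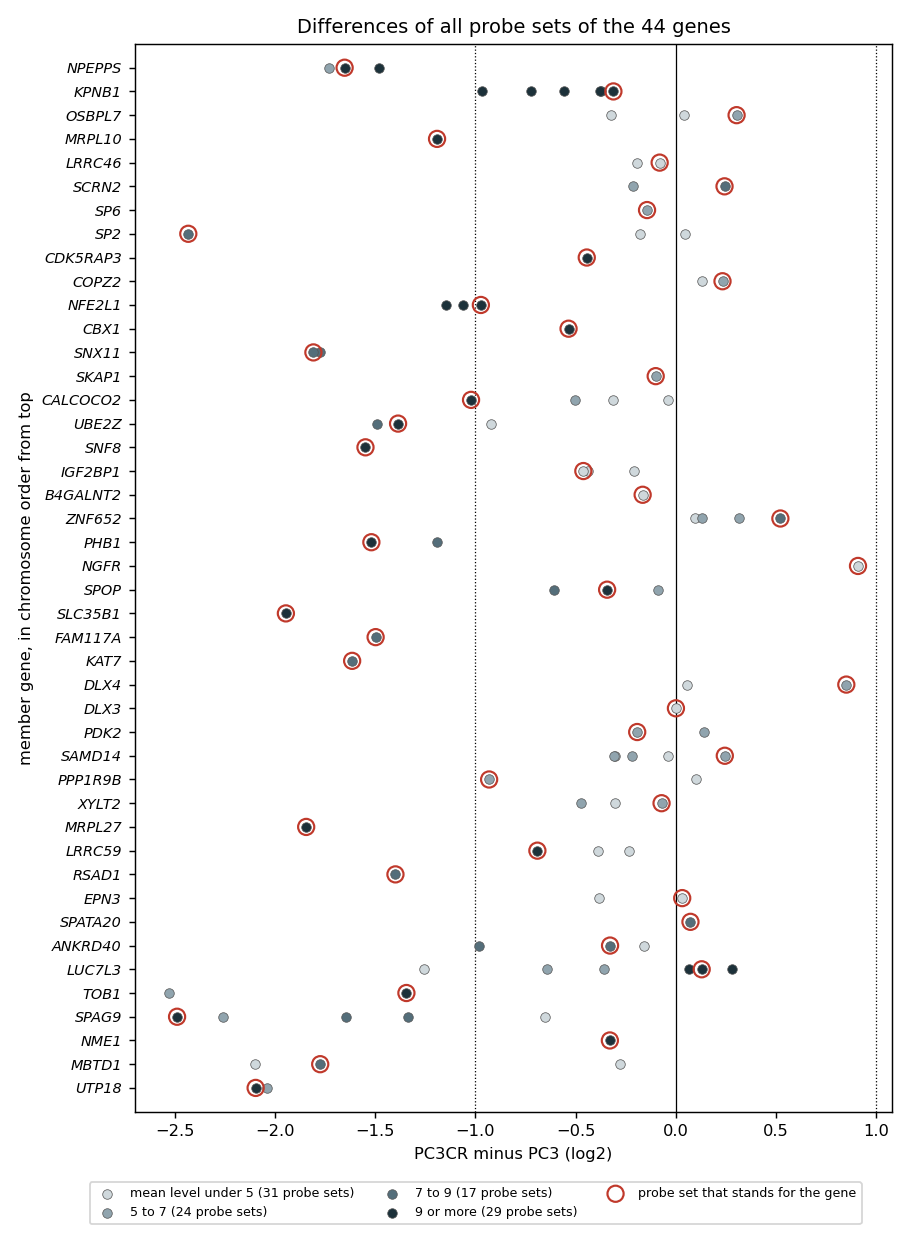
PC3CR minus PC3 (log2, horizontal axis) of each of the 101 probe sets of the 44 members (vertical axis, in chromosome order), shaded by the mean of both arrays, with a red ring around the probe set that stands for the gene; dotted lines mark 2-fold. The probe sets of NPEPPS, SNX11 and UTP18 lie close together, and those of SP2, SPAG9, MBTD1 and LUC7L3 are spread most widely.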

How the data were processed

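Gene expression was measured with 1 Affymetrix array each for PC3CR and PC3 cells. The authors deposited 1 log2 value per probe set, made with the robust multichip average, and the submitters' processing notes name Affymetrix Expression Console 1.4 and Transcriptome Analysis Console 3.1. Background correction and normalization, which makes both arrays' distributions alike, are those of the authors, as no scanner file was used. The methods name another array type than the one whose identifiers the probe sets carry.

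Of 54613 probe sets, 41091 had 1 gene symbol in the platform annotation, 1801 had several and 11721 were unnamed here. Symbols were updated through Entrez IDs for 41037 probe sets to RefSeq on GRCh38.p14, which also gave the order of genes. Each gene stood for its probe set with the highest mean of both arrays, and 10644 of 19775 genes met the floor (the brighter array at or above the median over genes of its array). PC3CR minus PC3 was counted at 2-fold. No test was run, because 1 array per line gives no spread between cultures. The members and all lists were chosen with earlier results of these data known. Values of both arrays were given for members that met the floor and were at least 2-fold lower, for the 4 such members with the highest differences and for up to 4 with the widest spread between probe sets. Named besides were up to 4 lowest and 4 highest other genes of the interval, 3 genes at each edge, and up to 2 genes furthest from 0 in each partner list. Other genes were named after their values had been seen. Promoter letters were searched in 250 bases before each start. The alternatives were the mean of all probe sets, probe sets without the suffixes for shared probes, a floor, thresholds of -0.5 and -1.5, median centring, loess centring (span 0.4), quantile normalization and other rules for the edges. A median counted as moved when it shifted by over 0.1, and a count when it changed more than 1.5 times. The scripts were tested on simulated data. Python 3.11.15, numpy 2.4.6, pandas 2.3.3, scipy 1.17.1, statsmodels 0.14.6 and matplotlib 3.10.9 were used.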

Additional observations from a re-analysis of the deposited data

How the results depend on the processing

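The medians of the members, of the other genes of the interval, of the flanks and of all partner genes together stayed below 0 under every alternative run for them. The number of members at least 2-fold lower, 17 of 44, was 16 with averaged probe sets, of which 15 were among the 17. It was 10 of the 36 members with a probe set free of shared-probe suffixes, and 11 at a limit of -1.5. Under loess centring and under quantile normalization the same 17 were lower and NGFR, at 1.02, was at least 2-fold higher, and median centring took CALCOCO2 to -0.98. UBE2Z was at -0.92 on its probe set without such a suffix. The median of the members, -0.45, was -1.0 over those that met the floor, and -1.11 with a floor on the mean of both arrays, which was chosen after seeing the data. For the other genes of the interval it was -0.60 and -0.75 with these floors, and their count of 3 was 1 on probe sets without shared-probe suffixes and 8 at -0.5. Of the 40 flanking genes, 11 were at least 2-fold lower, and 7 with the mean of probe sets, 7 on probe sets without shared-probe suffixes, 24 at -0.5 and 5 at -1.5. Their median of -0.68 was -0.56 with the mean of probe sets. The number of role groups with a median at or below -0.5, which was 4 of 8, was 7 with either floor and 2 under median centring and under quantile normalization. The lowered stretch held 61 genes, and 6, 36 or 31 with all genes let in, with a stop at 2 genes in a row and with the mean of probe sets. The cause of these shifts was not tested, other than that fewer genes entered under the floors. No paired analysis was possible because each cell line has 1 array.

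With 1 array per line, the spread between cultures is unknown, and a difference cannot be told apart from one between any pair of cultures. For the 10 members below the floor, signals on both arrays were weak, and a lower level in PC3CR cells would have had little room to show. RMA scales the arrays to each other, so a difference in RNA per cell is not measured.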
